A study of Rattus norvegicus with 4 samples.

Results

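On each of 4 Agilent 2-colour arrays, RNA labelled with Cy5 was hybridised together with RNA labelled with Cy3, and the comparison described here is Cy5 against Cy3 within each array. All spots that were not controls were used (58717 of 62976 per array). They gave 26646 genes or unnamed transcripts with a value on every array, of which 21765 were tested because at least 1 channel was well above background on every array. The remaining 4881 are not described. The tissue named for both channels is the spinal dorsal horn of male rats aged 6 weeks. On 2 arrays the labels give oxaliplatin as the treatment of the rats in Cy5, and on the other 2 arrays vehicle, on day 10. Oxaliplatin is a platinum drug used in chemotherapy. The Cy3 rats were untreated on all 4 arrays. The labels call the arrays biological replicates without saying how many rats went into each, so p-values measure only the spread between these 4 arrays. The dyes were not swapped and the labelling text names Cy3 alone, so the dye and the RNA pool cannot be told apart, and each direction below is a direction between channels. The oxaliplatin arrays shared a slide and the vehicle arrays another, so slide and treatment group cannot be told apart either.

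The dorsal horn is the part of the cord where axons of sensory neurons end. The cell bodies of those neurons lie outside the cord in the dorsal root ganglia, where Schwann cells and satellite glia surround them, while myelin inside the cord is made by oligodendrocytes. A cell's place along the body axis is marked by Hox transcription factors in the cord, and by factors such as Emx2 and Lhx2 in the forebrain, where Hox genes are silent. These gene groups therefore separate tissues that are close neighbours in a dissection or in a nervous system sample. In bulk RNA, fewer cells of a type and less RNA per cell cannot be told apart.

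Cy3 signals differed more between arrays than Cy5 signals did. The share of probes above background was 82.6% to 85.4% in Cy5, with a median spot signal of 913 to 1023.5. The Cy3 range was 76.8% to 88.1%, with a median spot signal of 283.5 on oxaliplatin array 2 and 494 to 564 on the other arrays. Levels of all genes correlated between arrays with r = 0.980 to 0.998 in Cy5 and 0.962 to 0.992 in Cy3, across genes, which are not independent replicates. The Cy5/Cy3 ratios correlated between arrays with r = 0.756 to 0.929. Of 48 measured markers of dorsal horn neurons, 47 were well above background in both channels on all 4 arrays. So were 20065 of the 21765 tested genes, and 36 of 37 measured markers of sensory ganglion neurons. These counts therefore do not tell the tissues apart.

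The steadier channel was the one labelled as treated. The SD of a gene's normalised log2 level over the 4 arrays had a median of 0.127 in Cy5 and 0.216 in Cy3, and it was smaller in Cy5 for 76.5% of genes. With signals centred on each array's median in place of loess, a choice made after seeing the data, the medians were 0.157 and 0.240, and the share was 70.6%. Isg15, an interferon-induced ubiquitin-like protein, had log2 Cy5 levels of 12.34, 12.32, 12.59 and 12.67 on oxaliplatin arrays 1 and 2 and vehicle arrays 1 and 2, and Cy3 levels of 13.21, 10.22, 12.84 and 13.98. Its Cy3 level on oxaliplatin array 2 stood far below those on the other 3 arrays, while its Cy5 levels were close together. The alpha-globin gene Hba-a1 ranged from 16.45 to 16.55 in Cy5 and from 14.07 to 16.70 in Cy3. Interferon-stimulated genes as a list had a median SD of 0.146 in Cy5 and 0.768 in Cy3 (25 genes), and MHC class II genes 0.107 and 0.491 (8 genes). These Isg15, globin and list values were chosen after they were seen. For these genes the differences between arrays in the ratio lay mainly in Cy3, the channel labelled untreated.

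Gene by gene, the ratio was tested against equal channels. A ratio is given as the mean log2 Cy5/Cy3 with its standard error (SE) over 4 arrays, so that 1 is 2-fold higher in Cy5 and -1 is 2-fold higher in Cy3, and 4 values in a row stand for oxaliplatin arrays 1 and 2 and vehicle arrays 1 and 2. A gene was called where the adjusted p (limma, Benjamini-Hochberg over all genes) was below 0.05, the mean ratio was at least 2-fold and all 4 arrays had the same sign. Of the 21765 genes, 810 (3.72%) were called higher in Cy5 and 242 (1.11%) higher in Cy3, so that 77% of calls were higher in Cy5. That split was 91.8% with median centring of each array in place of loess (1492 and 134 genes) and 62.9% with the log ratio of the scanner software (1053 and 621 genes). Without the size minimum, 27.6% of genes passed in the direction of Cy5 and 24.1% in that of Cy3. The shares of 3.72% and 1.11% are the ones to set beside the counts of called list members below.

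The directions differed in size. Of the genes higher in Cy5, 208 differed at least 4-fold and 27 at least 16-fold. No gene called higher in Cy3 reached 4-fold, and the largest difference was 3.59-fold. There were 35 tested genes not well above background in Cy3 on any array, of which 7 were called, and 10 not well above background in Cy5 on any array, of which 0 were called higher in Cy3. For the former a fold is a bound, the bright level against the higher of the dim channel's own level and its detection limit. Ccdc42 was at least 3.65-fold and Nr2e1, a nuclear receptor of neural stem cells, at least 2.65-fold higher in Cy5 by such a bound. Among the genes highest in Cy5 were Cnmd (chondromodulin, a cartilage glycoprotein) at 5.69, the sensory neuron sodium channels Scn11a at 5.69 and Scn10a at 5.34, and the calcitonin gene-related peptide gene Calca at 5.18.

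Among the genes highest in Cy3 were Apod at -1.84 (apolipoprotein D, secreted by glia and fibroblasts), the kinesin gene Kif1c at -1.84, the oligodendrocyte protease gene Klk6 at -1.80, Cabp7 at -1.76 (a neuronal calcium-binding protein), Cnp at -1.76 (an enzyme of central myelin) and Foxo4 at -1.75. Cabp7 had ratios of -1.77, -1.79, -1.70 and -1.81, so its 4 arrays almost coincided. The kinesin gene was more spread, at -2.30, -1.89, -1.53 and -1.63. Further genes named by the same rule were Metrn (-1.71), Tmem63a (-1.67), Slc5a11 (-1.59), Padi2 (-1.55) and Myo1d (-1.52). Grip2 was at -1.63 for its brightest probe, while its probes disagreed in sign and it lost the call as a mean over probes (-0.81). As means over probes Foxo4 was at -1.02 and Cabp7 at -1.30, smaller differences at which both kept their calls.

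**Figure D1:**
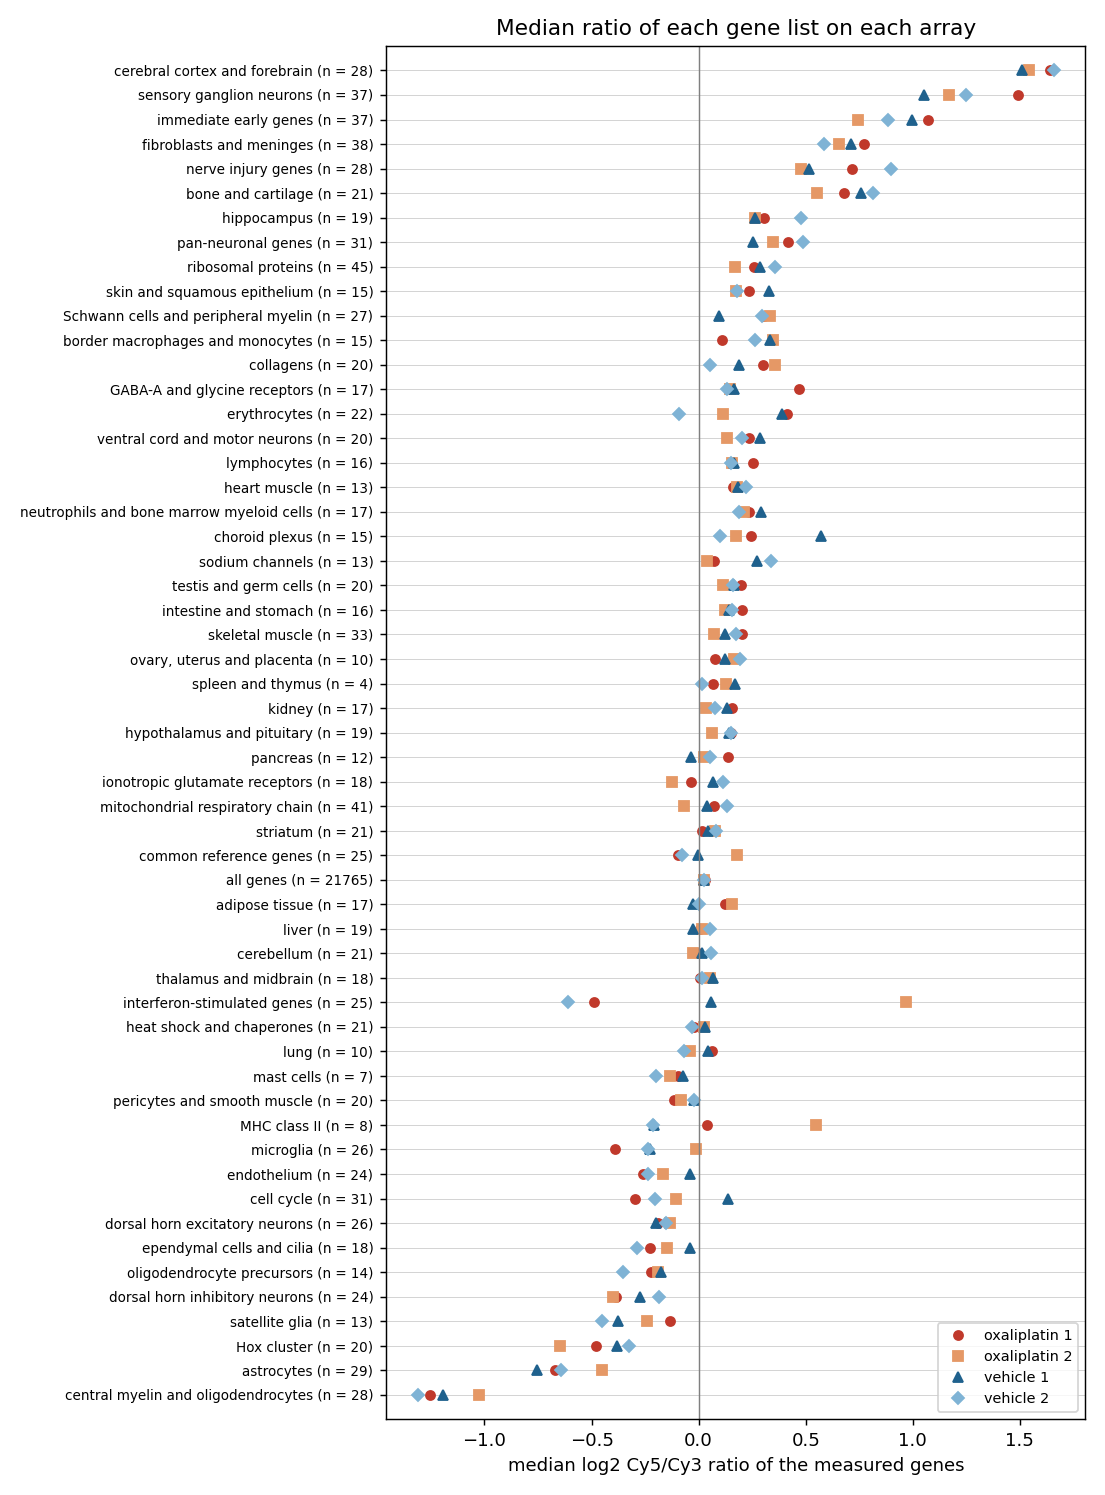
Median log2 Cy5/Cy3 ratio (horizontal axis) of the measured genes of each gene list (vertical axis, number of measured genes in brackets), with 1 point per array. On all 4 arrays the cerebral cortex list lay farthest towards Cy5 and the sensory ganglion list next, the immediate early genes lay above 0.7, and the central myelin and astrocyte lists lay below 0, while the interferon list ranged from -0.61 to 0.97 between arrays.

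Genes of sensory ganglion neurons were far higher in Cy5. Of 37 measured genes, 21 were called higher in Cy5 and 0 higher in Cy3, against 3.72% and 1.11% of all genes, and the median ratio was 1.35 against 0.03 for all genes. The per-array medians were 1.49, 1.17, 1.05 and 1.25. Without the size minimum, 1 gene passed the unadjusted p of 0.05 in limma towards Cy3. Another list member on the array was not well above background. Among the channels, Scn10a and Scn11a encode the sodium channels Nav1.8 and Nav1.9 of pain-sensing neurons. The ratios of Scn10a were 5.57, 4.97, 5.05 and 5.76 (SE 0.14, adjusted p 1.76e-06), and those of Scn11a were 6.01, 5.14, 5.57 and 6.02 (SE 0.15). Both genes exceeded 30-fold on every array. The ATP-gated channel P2rx3 had ratios of 4.74, 4.24, 4.20 and 4.56. Scn9a, the channel Nav1.7, had ratios of 2.92, 3.03, 2.89 and 3.16. The capsaicin receptor Trpv1 was at 2.75, the cold receptor Trpm8 at 1.30 and the potassium channel gene Kcnk18 at 1.17.

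The peptide genes varied more between arrays. Calca had ratios of 5.62, 3.92, 4.54 and 6.63 (SE 0.41), with Cy5 levels of 15.94 to 16.42 and Cy3 levels of 9.67 to 12.02, so its spread lay in Cy3. Its second probe differed, and the mean over probes was 2.72. Calcb, its paralog, was at 3.74, 2.09, 3.17 and 4.59. Gfra3, the artemin receptor, was at 3.51. The actin-binding protein gene Avil, which is restricted to sensory neurons in the nervous system, was at 5.13, 4.83, 4.64 and 5.01. Peripherin (Prph, an intermediate filament of neurons with peripheral axons) was at 2.73, and the transcription factor genes Isl1 at 2.54 and Pou4f2 at 1.79. Fxyd2, a regulator of the sodium pump, was at 3.27, and Sncg, the synuclein of sensory neurons, at 2.30.

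Not all members were separated. The neurofilament gene Nefh was at 0.01 (0.32, -0.23, -0.15 and 0.10), Pvalb at 0.21, Runx3 at -0.10, and the peptide genes Sst and Gal at -0.07 and -0.50. The irritant receptor gene Trpa1, not well above background in Cy3 on any array, had levels of 6.93 in Cy5 and 6.31 in Cy3 and was not called. Of 13 measured sodium channel genes, 5 were called higher in Cy5 and 0 higher in Cy3. Besides the 3 above these were Scn3b (1.56) and Scn2a (1.40), while Scn8a (0.24), Scn1a (-0.23), Scn2b (-0.05) and the muscle channel gene Scn4a (0.14) were not called.

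Schwann cell genes were called in both directions. Of 27 measured, 12 were called higher in Cy5 and 6 higher in Cy3, with a median of 0.26 (0.11 with median centring and 0.62 with the scanner software's ratio). The 4 that the central myelin list also holds had a median of -1.27, with 3 called higher in Cy3, and the other 23 had a median of 1.30, with 12 called higher in Cy5 and 3 higher in Cy3. This subset was set apart after the values were seen. Egr2, the transcription factor that switches on peripheral myelination and is also an immediate early gene in neurons, had ratios of 4.84, 4.37, 4.72 and 4.72 (mean 4.66, SE 0.09, adjusted p 8.28e-07). Further members higher in Cy5 were Dhh (desert hedgehog, 3.10), the neurotrophin receptor gene Ngfr (3.06), Pmp2 (2.86), Pmp22 (2.69), Cldn19 (2.55), Gldn (2.43) and the periaxin gene Prx (2.10).

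Among those called higher in Cy3 were the gap junction gene Gjb1 (-1.46), Ninj2 (-1.44), Pllp (-1.44), Mal (-1.38) and Mbp (-1.08). Of these, Mbp and Gjb1 are also on the central myelin list. Mbp lost its call as a mean over probes (-0.56) and with median centring (-0.20). With median centring 4 of the 6 calls towards Cy3 were kept. Whether oligodendrocytes also express Ninj2, Pllp and Mal was not examined, so their calls cannot be assigned to Schwann cells. The glial transcription factor gene Sox10, expressed by both cell types, was at -0.52 and was not called. Satellite glia share some of their genes with astrocytes. Of 13 measured, 1 was called higher in Cy5 (the glutamate transporter gene Slc1a3) and 2 higher in Cy3 (Plekhb1 at -1.20 and the endothelin receptor gene Ednrb at -1.01), and the median was -0.36 (-0.21 with median centring).

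**Figure D2:**
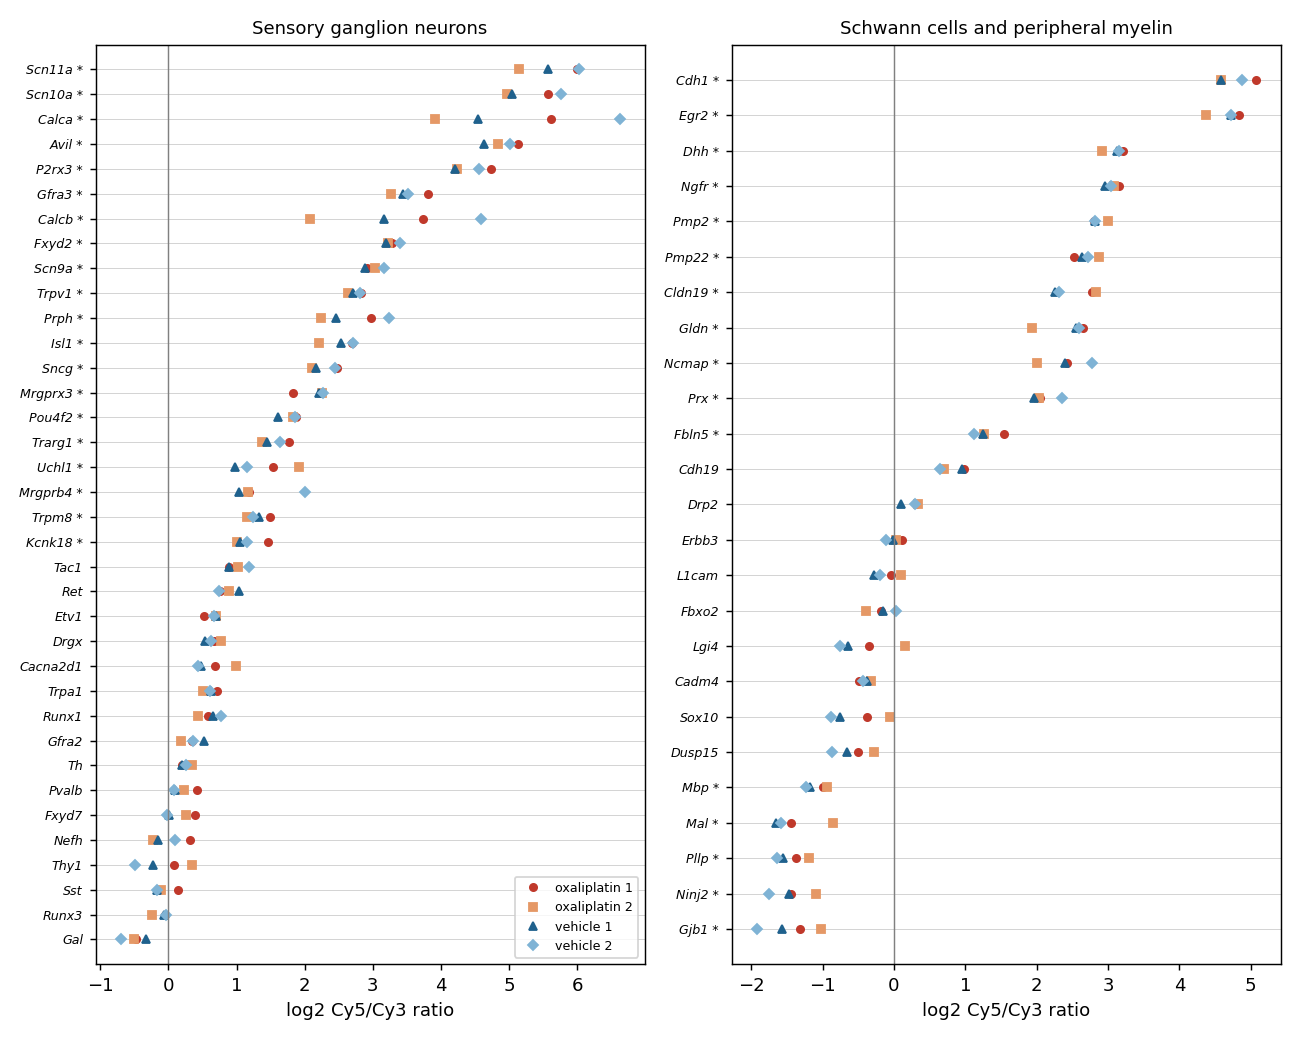
Log2 Cy5/Cy3 ratio (horizontal axis) of measured sensory ganglion genes (left) and Schwann cell genes (right), 1 point per array, ordered by the mean and with called genes starred. The sodium channel genes Scn10a and Scn11a lay near 5 to 6 on every array, and the Schwann panel ran from Cdh1 near 5 to Gjb1 below -1.

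Myelin genes of the central nervous system showed the opposite direction. Of 28 measured genes of oligodendrocytes and central myelin, 20 were called higher in Cy3 and 0 higher in Cy5, 27 were below 0 on all 4 arrays, and the median was -1.16 (-1.25, -1.03, -1.20 and -1.31 by array). The member above 0 was also the 1 gene that passed the unadjusted p of 0.05 towards Cy5. Klk6 had ratios of -1.75, -1.54, -1.85 and -2.05 (SE 0.09, adjusted p 2.47e-05), and Cnp -1.71, -1.37, -1.68 and -2.27 (SE 0.14). Structural and adhesion proteins of the sheath lay close together, with Cldn11 at -1.66, Mag at -1.55, Mobp at -1.44 and Mog at -1.42.

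Regulators of the lineage were called as well, with Nkx6-2 at -1.51, -1.35, -1.62 and -1.53, Myrf (the regulator of myelin genes) at -1.20 and Olig1 at -1.13. The related factor Olig2 was at -0.38, and Tmem125, at 0.19, was the exception to the direction. Central myelin genes are bright, with a median Cy3 level of 13.9 against 9.67 for all genes. With median centring in place of loess, a normalisation that does not depend on brightness, the list median was -0.76 and 8 of the 20 genes kept their call. Genes of oligodendrocyte precursors were closer to equal: of 14 measured, 2 were called higher in Cy3 (C1ql1 at -1.44 and Olig1) and 0 higher in Cy5, with the receptor gene Pdgfra at 0.00 and the proteoglycan gene Cspg4 at -0.26.

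Astrocyte genes lay on the same side as central myelin with smaller differences. Of 29 measured, 8 were called higher in Cy3 and 1 higher in Cy5, and the median was -0.57 (-0.67, -0.45, -0.76 and -0.64 by array). The intermediate filament gene Gfap had ratios of -1.87, -1.21, -2.20 and -1.73 (mean -1.75, SE 0.15, adjusted p 0.000208). Angiotensinogen (Agt), which astrocytes secrete, was at -1.59, Itih3 at -1.59, the glycine transporter gene Slc6a9 at -1.24, Mlc1 at -1.22, Fgfr3 at -1.10, the water channel gene Aqp4 at -1.06 and Aldh1l1 at -1.04. Glutamate transport was divided: Slc1a3 was higher in Cy5 (1.27, 1.32, 1.38 and 1.58), while Slc1a2 was at -0.20. As a mean over probes Slc1a3 was at 0.98 and lost its call. Aqp4 (-0.85) and Fgfr3 (-0.98) lost theirs as well, so that 6 of the 8 calls towards Cy3 were kept. The calls near the limit were the least stable: 3 of the 8 genes higher in Cy3 kept the call with median centring, where the list median was -0.13, and 5 without vehicle array 2, where Aldh1l1 (-0.86), Mlc1 (-0.94) and Aqp4 (-0.96) fell below the size minimum.

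**Figure D3:**
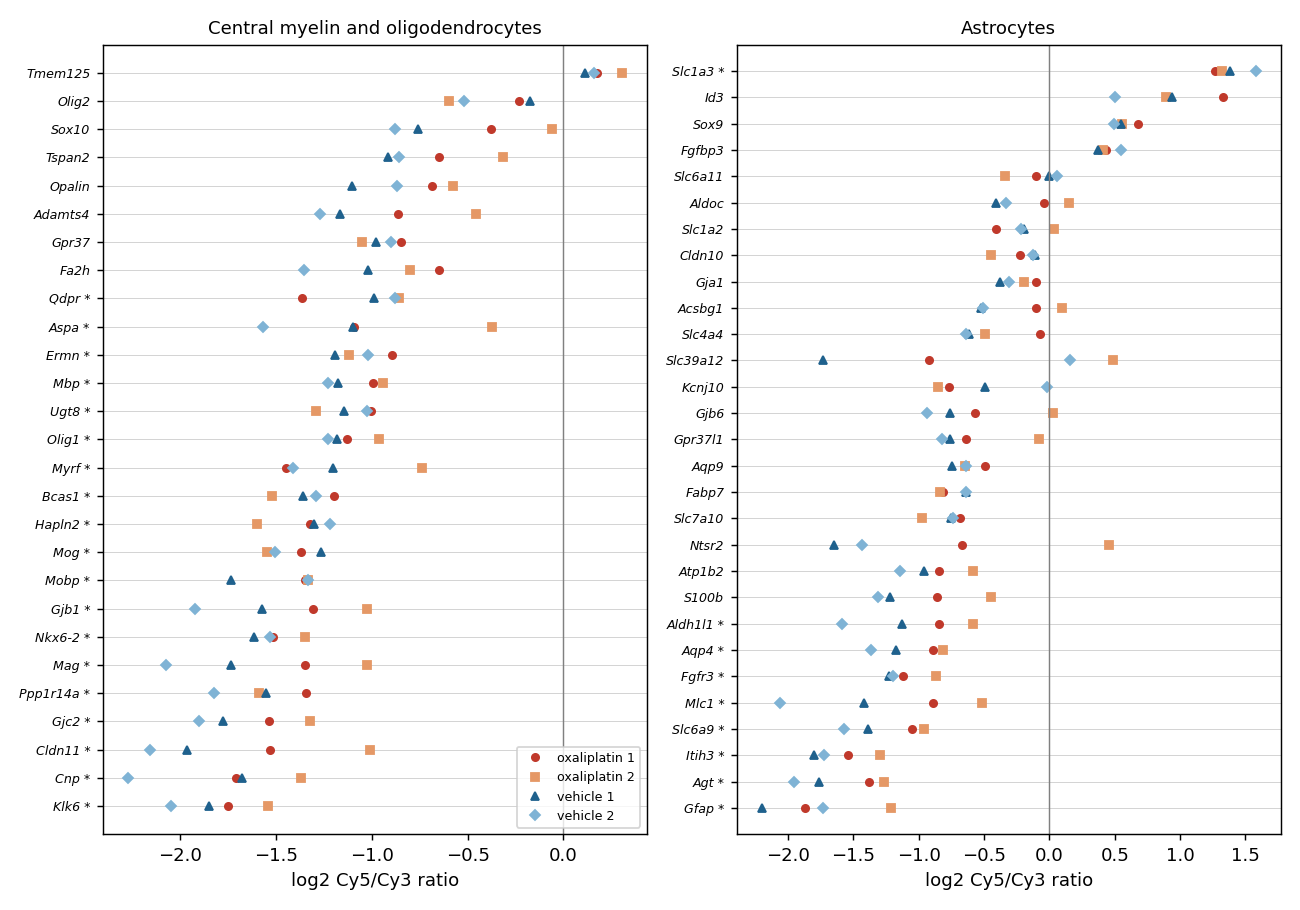
Log2 Cy5/Cy3 ratio (horizontal axis) of measured genes of central myelin and oligodendrocytes (left) and of astrocytes (right), 1 point per array, ordered by the mean and with called genes starred. All myelin genes drawn apart from Tmem125 lay below 0 on every array, and Slc1a3 was the astrocyte gene called higher in Cy5.

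Genes of the cerebral cortex and forebrain were the list farthest towards Cy5. Of 28 measured, 17 were called higher in Cy5 and 0 higher in Cy3 (2 towards Cy3 at an unadjusted p of 0.05 in limma), with a median of 1.59 (1.64, 1.54, 1.51 and 1.66 by array). Patterning factors of the forebrain were far apart between channels, with Lhx2 at 4.25, Emx2 at 4.16 and Dlx1, an interneuron factor, at 3.41. Lhx2 had ratios of 4.33, 3.88, 4.33 and 4.46. Fezf2, a factor of neurons that project below the cortex, was at 3.21.

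Genes of mature excitatory neurons of the forebrain were higher too, with Neurod2 at 2.46, Nrgn (neurogranin) at 2.31, Neurod6 at 2.03, the vesicular glutamate transporter gene Slc17a7 at 1.90 and Camk2a at 1.49. Slc17a7 was well above background in Cy3 on 2 arrays, and the scanner software's ratio for it was 4.43. Interneuron genes Lhx6 (1.93) and Dlx5 (1.46) were called as well. Not called were Bcl11b (0.76), Cux2 (0.57), the ventral factor Nkx2-1 (0.12), Rorb (-0.19), Otx1 (-0.55) and Tbr1, a cortical factor at 0.38 that was well above background in Cy3 on 1 array.

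Other brain regions had smaller shares called higher in Cy5 than the cortex list. Of 95 genes of the hippocampus, striatum, hypothalamus and pituitary, thalamus and midbrain, and cerebellum, 14 (14.7%) were called higher in Cy5 and 4 (4.21%) higher in Cy3. Among all genes the shares were 3.72% and 1.11%. Some called members are on other lists too, with Neurod6 and Neurod1 on the cortex list and Isl1 (2.54) on the ganglion list. For the hippocampus 6 of 19 were called higher in Cy5, led by Rgs14 (2.19), Neurod6 and Trpc6 (1.76), and the median was 0.33. For the striatum 4 of 21 were called higher in Cy5, among them Rasd2 at 1.56, and Penk was called higher in Cy3. The dopamine receptor genes Drd1 and Drd2 were at 0.17 and -0.78. For the cerebellum 2 of 21 were called higher in Cy5, the calcium release channel gene Itpr1 at 3.21 and Neurod1 at 1.45, while the Purkinje cell genes Pcp2 (0.02), Pcp4 (0.01) and Car8 (0.79) were not called. The serotonin synthesis gene Tph2 was at 1.03, and the catecholamine synthesis gene Th at 0.25.

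Receptor subunits differed by subunit. Among all genes, 3.72% were called higher in Cy5 and 1.11% higher in Cy3. Of 17 measured GABA-A and glycine receptor genes, 3 were called higher in Cy5 and 0 higher in Cy3. Among these were the extrasynaptic delta subunit gene Gabrd (2.39) and Gabra4 (1.67). The glycine receptor genes Glra1 and Glra3 were at -0.71 and -0.89. Of 18 ionotropic glutamate receptor genes, Gria3 (1.47) and Grik1 (1.02) were called higher in Cy5 and Grin3b (-1.18) higher in Cy3. Genes that all neurons use were called higher in Cy5 for 9 of 31 and higher in Cy3 for 0, with a median of 0.31, and for 11 and 0 with a median of 0.83 under median centring. Among the 9 were Stx1a (1.65), Elavl4 (1.49) and Syt1 (1.28). Neurofilament genes Nefl (0.25) and Nefm (0.27) and Snap25 (-0.06) were not called.

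Immediate early genes, which neurons switch on within minutes of activity and other cells after growth factors or handling of the tissue, were called higher in Cy5 in 17 of 37 cases and higher in Cy3 in 0 (2 towards Cy3 at an unadjusted p of 0.05 in limma). The median was 0.87 (1.07, 0.74, 1.00 and 0.88 by array). Egr4 had ratios of 5.26, 4.56, 5.35 and 5.12 (mean 5.07, SE 0.13, adjusted p 1.66e-06). Arc, a protein of activated synapses, was at 3.07, 3.18, 2.72 and 2.80, and Fos at 1.77, 1.53, 2.19 and 1.63. The orphan receptor genes Nr4a3, Nr4a1 and Nr4a2 were at 2.74, 2.67 and 1.72, Ier5 at 2.52, Junb at 2.26, Homer1 at 1.96 and Egr1 at 1.35.

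Several genes of the same response were near equal. Fosb was at -0.36, Egr3 at 0.20, Npas4 at 0.07, Dusp1 at 0.32, Ier3 at 0.01 and Nptx2 at 0.14. Npas4 was well above background in Cy3 on 2 arrays. Of the called genes, Egr2, Arc and Homer1, for example, also have steady expression in Schwann cells or the forebrain. Nr4a2 is on the forebrain list as well. Steady expression of the other called genes was not examined. Klf4 (1.04) fell below the size minimum without oxaliplatin array 1 (0.85) and without vehicle array 1 (0.95).

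Because these genes are known for shared control elements, their upstream stretches were searched in both strands. RefSeq's promoter table (build GRCr8) held 28 of the 37 genes, and the 250 bases before the start were used. The CArG box, the site of serum response factor, was found in 3 of 13 called genes (Egr1, Egr2 and Dusp5) and 2 of 15 not called, against 1.5% of 27457 promoters. The cyclic AMP response element TGACGTCA was found in 1 of 13 called genes (Btg2) and 4 of 15 not called, against 1.7%. The AP-1 site TGANTCA was found in 0 of 28, against 6.36%. The stretches of 2 called genes with a CArG box are shown 5′ to 3′, with the box in capitals, so that the shared letters can be seen. That of Egr2 lies on the minus strand at chr20:21054442-21054691, and that of Dusp5 (ratio 1.25), where the boxes at 82 and 72 bases before the start abut, on the plus strand at chr1:262543524-262543773. A match is a description of these letters only.
Egr2: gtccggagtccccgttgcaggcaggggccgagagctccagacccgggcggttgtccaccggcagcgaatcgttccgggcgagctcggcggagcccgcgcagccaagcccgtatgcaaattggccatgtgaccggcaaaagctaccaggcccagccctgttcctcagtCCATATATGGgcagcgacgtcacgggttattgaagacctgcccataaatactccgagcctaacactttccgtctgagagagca
Dusp5: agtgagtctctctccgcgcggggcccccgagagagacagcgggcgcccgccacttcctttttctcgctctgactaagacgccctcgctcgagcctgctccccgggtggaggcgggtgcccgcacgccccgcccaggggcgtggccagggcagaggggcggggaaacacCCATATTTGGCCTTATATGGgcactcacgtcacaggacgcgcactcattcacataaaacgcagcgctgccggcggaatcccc

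**Figure D4:**
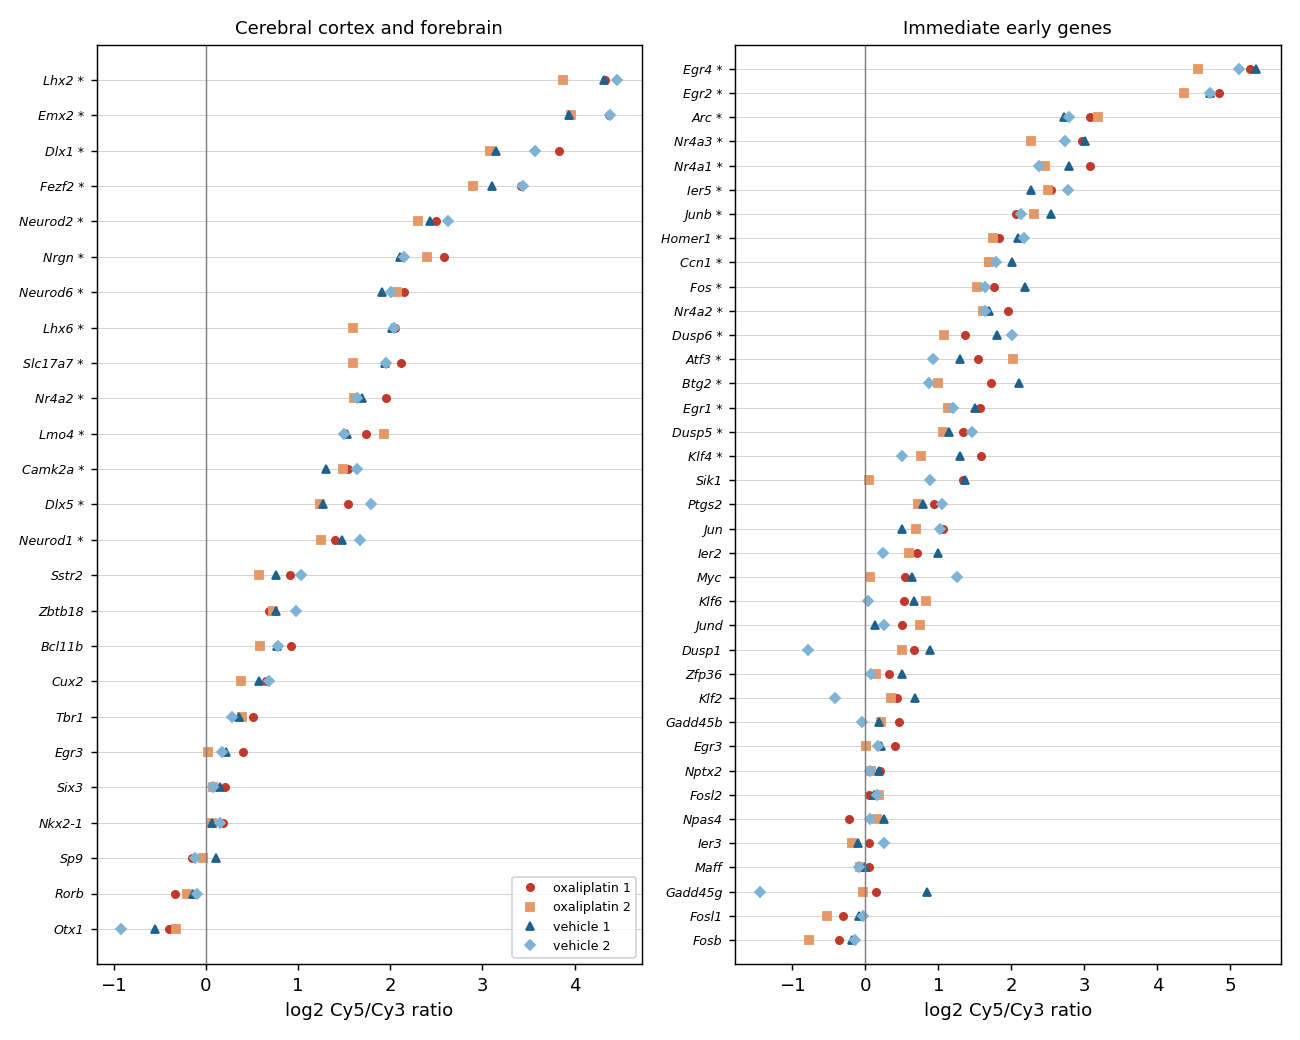
Log2 Cy5/Cy3 ratio (horizontal axis) of measured cerebral cortex and forebrain genes (left) and immediate early genes (right), 1 point per array, ordered by the mean and with called genes starred. Lhx2 lay near 4 and Egr4 near 5 on every array, and both panels ran down to genes below 0.

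Neurons of the dorsal horn, the labelled tissue, had calls in both directions and leaned towards Cy3. Over 48 genes of excitatory and inhibitory dorsal horn neurons, 5 (10.4%) were called higher in Cy5 and 8 (16.7%) higher in Cy3. Among all genes the shares were 3.72% and 1.11%. The median of the 48 genes was -0.22. Among inhibitory genes, the glycine transporter gene Slc6a5 was at -1.55, -1.49, -1.28 and -0.89 (mean -1.30), the enkephalin precursor gene Penk at -1.34, -1.21, -1.36 and -1.53, and Lbx1, a developmental factor of dorsal horn neurons, at -1.22, -1.15, -1.26 and -1.26. As a mean over probes Slc6a5 was at -0.97 and lost its call. The GABA synthesis genes Gad1 and Gad2 were at 0.07 and -0.22 and the vesicular transporter gene Slc32a1 at -0.41.

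Excitatory peptides divided. Higher in Cy3 were the genes of thyrotropin-releasing hormone (Trh, -1.30), neurotensin (Nts, -1.27) and Npff (-1.15), with the calcium-binding protein gene Calb2 (-1.15) and the factor Ebf3 (-1.05). Among those higher in Cy5 were cholecystokinin (Cck, 2.89, 2.88, 2.64 and 3.01), Crh (2.51) and Grp (1.46), and among inhibitory genes the factor Bhlhe22 (2.05). Cck, Crh, Grp and Bhlhe22 are also expressed in the forebrain. The vesicular glutamate transporter gene of the cord, Slc17a6, was at -0.82 and was not called, and the substance P receptor gene Tacr1 was at -0.85. With median centring in place of loess, 3 of the 6 excitatory and 1 of the 3 inhibitory calls towards Cy3 were kept, with Lbx1 on both lists.

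Motor neuron and ventral cord genes were divided. Of 20 measured, 6 were called higher in Cy5, of which Calca, Prph and Isl1 are on the ganglion list as well, with Isl2 (2.17), Slit3 (1.13) and Foxp1 (1.05). The cholinergic transporter genes Slc5a7 and Slc18a3 were called higher in Cy3, at -1.45 and -1.04. The former had ratios of -1.41, -2.14, -1.70 and -0.55, and vehicle array 2 stood apart. The acetylcholine synthesis gene Chat was at -0.20 and the motor neuron factor Mnx1 at -0.16.

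Hox genes were detected in both channels and leaned towards Cy3. Of 39 genes in the 4 clusters, 20 were measured and 18 of these were well above background in both channels on all arrays. So were 20065 of the 21765 tested genes. Called higher in Cy3 were 3 and higher in Cy5 were 0, 13 were below 0 on all 4 arrays, and the median was -0.44 (-0.48, -0.65, -0.38 and -0.33 by array). Hoxb4 had ratios of -1.44, -1.54, -1.33 and -1.39 (mean -1.43, SE 0.06, adjusted p 1.32e-05), Hoxa7 -1.15, -1.92, -1.01 and -0.98, and Hoxb8 -1.10, -1.29, -1.33 and -1.04. Neighbouring members Hoxb7 (-0.98), Hoxa2 (-0.88), Hoxa6 (-0.80) and Hoxd9 (-0.75) fell short of the size minimum. The members lowest on oxaliplatin array 2 by a wide gap included Hoxa7, Hoxa11 (-0.48, -1.76, -0.36 and 0.18), Hoxd10 (-0.64, -1.22, -0.19 and 0.52) and Hoxc4 (-0.51, -1.59, -0.26 and -0.33). They were picked after the values were seen. Both Hoxa11 and Hoxd10 were above 0 on vehicle array 2.

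**Figure D5:**
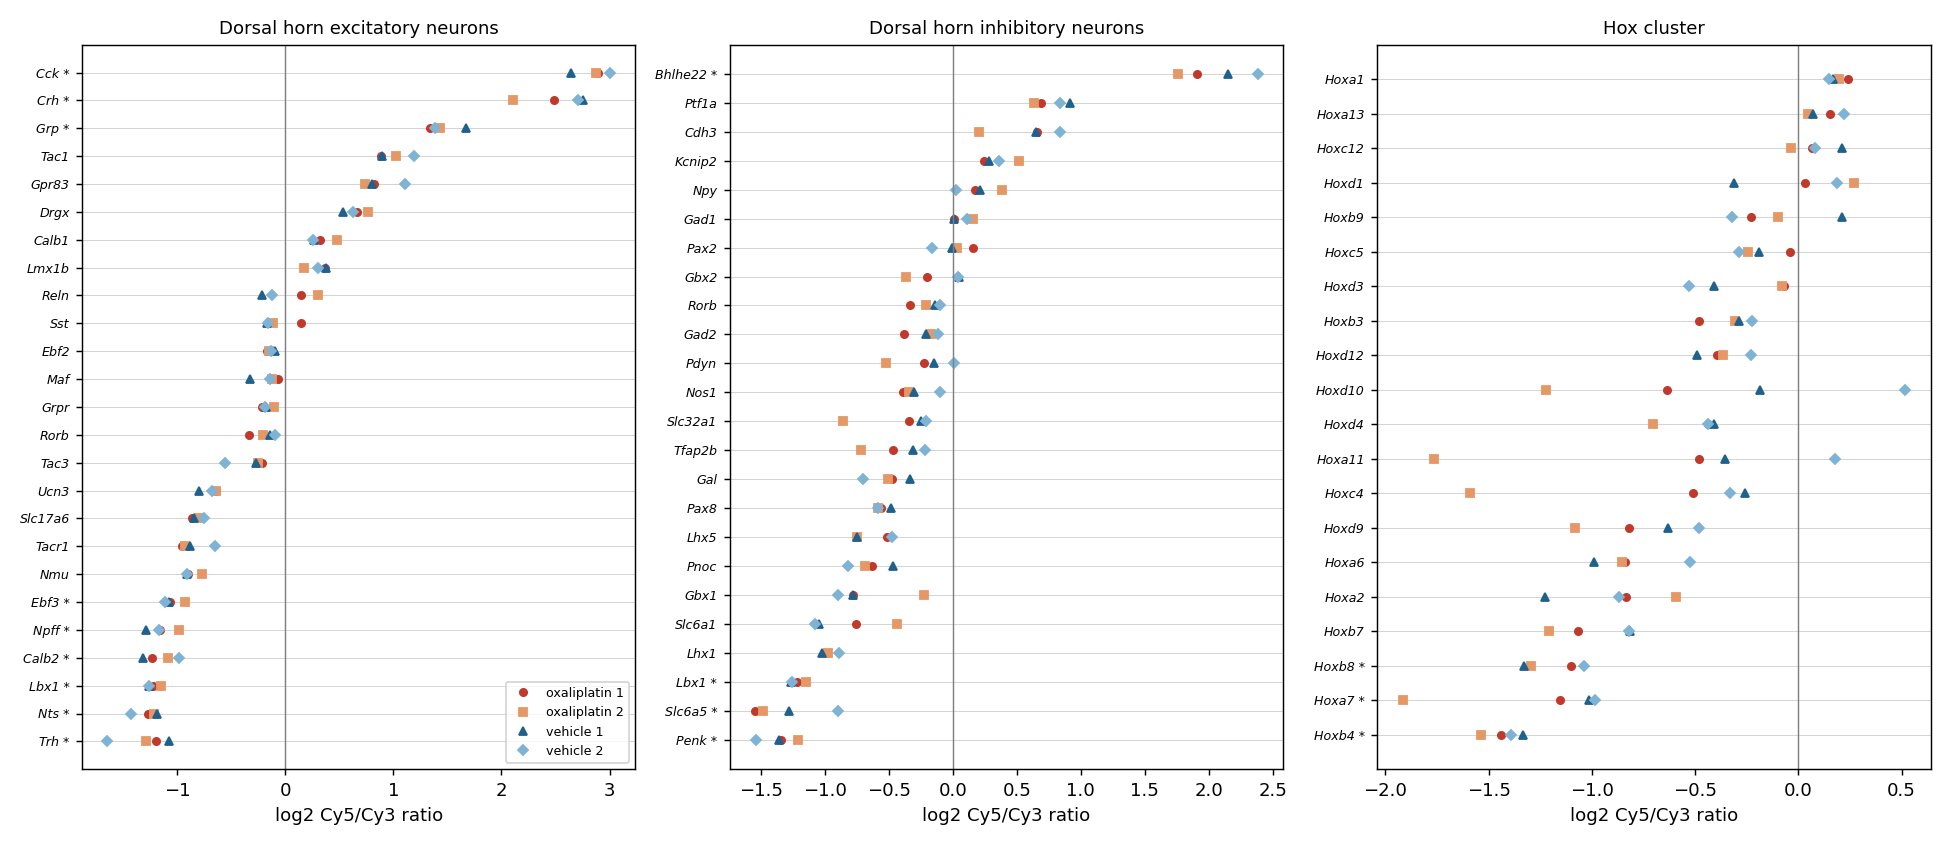
Log2 Cy5/Cy3 ratio (horizontal axis) of measured genes of excitatory (left) and inhibitory (middle) dorsal horn neurons and of the Hox clusters (right), 1 point per array, ordered by the mean and with called genes starred. The horizontal scales differ between panels, and oxaliplatin array 2 lay apart for Hoxa11, Hoxc4 and Hoxd10.

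Connective tissue genes were higher in Cy5. Of 38 measured genes of fibroblasts and meninges, 14 were called higher in Cy5 and 2 higher in Cy3, with a median of 0.70. Fibrillar collagens led among the abundant members: Col3a1 had ratios of 2.54, 2.88, 3.01 and 3.04 (SE 0.09), Col1a2 was at 2.71 and Col1a1 at 2.51. The adhesion gene Cdh1, which Schwann cells, meningeal and epithelial cells use, was at 4.78 (5.07, 4.59, 4.59 and 4.88). The matrix proteoglycan genes Dcn and Fmod were at 1.81 and 1.67, and the meningeal transporter gene Slc22a6 at 2.26. Called higher in Cy3 were Apod and the retinal dehydrogenase gene Aldh1a1 (-1.07).

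Of all 20 measured collagen genes 6 were called higher in Cy5 and 0 higher in Cy3, so the difference concerned particular chains, with Col5a1 at 0.86 and Col6a2 at 0.28 not called. Cartilage and bone genes were called higher in Cy5 in 7 of 21 cases, against 3.72% of all genes. The member that stood apart was Cnmd (5.39, 5.43, 5.74 and 6.21), followed by the osteoclast protease gene Ctsk (2.07). The main cartilage matrix genes Col2a1 (0.17) and Acan (-0.92) and the growth plate gene Ihh (-0.75) were not called. Runx2 (1.23) and Hapln1 (1.23) lost their calls as means over probes.

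Choroid plexus genes were called higher in Cy5 in 5 of 15 cases and higher in Cy3 in 1. Among all genes the shares were 3.72% and 1.11%. Sostdc1, an inhibitor of bone morphogenetic protein signalling, was at 4.26, 3.92, 4.16 and 4.53, Calml4 at 2.67, the water channel gene Aqp1 at 2.07, Kcnj13 at 1.54 and transthyretin (Ttr) at 1.28. The choroid genes Folr1 (-0.15), Kl (-0.09) and Clic6 (0.18) were near equal. Ttr itself was dim, with levels of 8.21 in Cy5 and 6.93 in Cy3. Of 18 ependymal genes of motile cilia, 1 was called higher in Cy5 (Tppp3, 1.08) and 0 higher in Cy3. Tppp3 had ratios of 1.36, 1.15, 0.96 and 0.87. Smaller differences leaned towards Cy3: without the size minimum, 3 of the 18 passed the adjusted threshold towards Cy5 and 7 towards Cy3. The ciliary regulator gene Foxj1 was at -0.41.

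Genes known to change in injured sensory neurons were called higher in Cy5 in 10 of 28 cases and higher in Cy3 in 3. Anxa1 (annexin A1) had ratios of 4.12, 4.20, 4.13 and 4.43, the chemokine gene Ccl2 was at 3.69, Vip at 2.88, Sprr1a at 1.63, Cckbr at 1.60, the stress factor Atf3 at 1.45 and the chaperone gene Hspb1 at 1.30. As a mean over probes Cckbr was at 0.995 and lost its call. Higher in Cy3 were Stmn4 (-1.40), Nts and Csf1 (-1.01). Other genes of the same list, Gap43 (0.64), Jun (0.82), Sox11 (0.17), Npy (0.20), Gadd45a (-0.09) and Gal (-0.50), were not called. Both vehicle and oxaliplatin arrays showed these ratios. Vip, Crh and Cckbr are cortical genes as well, and the cause of the ratios was not tested.

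Immune and blood lists had at most 3 calls each, beside 3.72% of all genes called higher in Cy5 and 1.11% higher in Cy3. Of 26 microglial genes 0 were called in either direction at the adjusted threshold with the size minimum, and 3 and 11 passed the unadjusted p of 0.05 in limma towards Cy5 and Cy3, with Cx3cr1 at 0.41, Tmem119 at -0.44 and P2ry12 at -0.50. Macrophages of the borders of the nervous system gave 3 of 15 higher in Cy5, a larger share than among all genes. They were Pf4 (1.94, 1.75, 1.98 and 1.99), Clec10a (1.26) and the lysozyme gene Lyz2 (1.16). Without the size minimum, 8 of the 15 passed the adjusted threshold towards Cy5 and 2 towards Cy3. Lymphocyte (16 genes), neutrophil (17) and mast cell (7) lists had 0 calls, with 7, 9 and 1 genes towards Cy5 and 0, 2 and 2 towards Cy3 at an unadjusted p of 0.05 in limma. Of 22 erythrocyte genes, 2 were called higher in Cy5, among them Ahsp (1.44), and the globin genes Hbb (1.12) and Hba-a1 (0.76) were not. With median centring 5 were called. Ratios of Hbb were 2.78, 0.35, 1.25 and 0.08, far apart between arrays. Interferon-stimulated genes gave 0 of 25 higher in Cy5 and 1 higher in Cy3 (Bst2, -1.33). Their median was 0.97 on oxaliplatin array 2 and -0.49, 0.06 and -0.61 on the other arrays, while the median Cy3 level was 10.33 on that array and 11.72 to 12.42 on the others.

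Lists of other tissues held a few called genes each at most. Over 185 genes of muscle, heart, liver, kidney, lung, gut, pancreas, gonads, lymphoid organs, skin and fat, 13 (7.03%) were called higher in Cy5 and 2 (1.08%) higher in Cy3, against 3.72% and 1.11% of all genes. Skeletal muscle, which lies against the vertebral column, had 3 of 33 higher in Cy5 (Smpx at 2.15, Tcap at 1.29 and Trdn at 1.05) and Pygm higher in Cy3 (-1.04), while Myh1 (0.15), Ckm (0.30) and Myog (0.16) were near equal. The actin gene Acta1 was at 0.07 with loess and at -0.26 with median centring. Heart genes held Tnnt2 at 2.62 and the natriuretic peptide gene Nppb at 1.38 beside Myh6 at 0.12 and Tnni3 at -0.31. Liver genes held Alb (2.48, 1.69, 2.65 and 2.34) and Ttr, with Apoa1 (-0.42), Ahsg (-0.42) and Hnf4a (0.02) not called.

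Housekeeping genes depended on the normalisation. With loess, of 45 ribosomal protein genes, 41 genes of the respiratory chain, 31 cell cycle genes and 25 common reference genes, 0 were called in either direction. The medians were 0.27, 0.08, -0.16 and 0.04. With median centring in place of loess, 22 ribosomal protein genes, 15 of the respiratory chain, 0 of the cell cycle and 7 reference genes were called higher in Cy5 and 0 higher in Cy3, and the medians were 0.99, 0.73, -0.15 and 0.50. The ribosomal, respiratory chain and reference lists are bright, with median Cy5 levels of 15.8, 15.5 and 14.7 against 9.76 for all genes, while that of the cell cycle list was 8.60. With loess, differences under 2-fold were common: at an unadjusted p of 0.05 in limma, 25 ribosomal protein genes passed towards Cy5 and 9 towards Cy3, 16 and 14 of the respiratory chain, 5 and 12 of the cell cycle, and 9 and 8 reference genes. Beside 3.72% and 1.11% of all genes, the endothelial list had 1 of 24 in each direction (Esm1 at 1.28 and Cldn5 at -1.18). At an unadjusted p of 0.05 in limma, 6 endothelial genes passed towards Cy5 and 11 towards Cy3. Esm1 fell below the size minimum in the oxaliplatin arrays alone (0.985) and Cldn5 with median centring (-0.93). Mural cells had 2 of 20 higher in Cy5 (Synm at 1.82 and Pln at 1.15).

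Each treatment group was also fitted alone. Of the 810 genes called higher in Cy5 over all 4 arrays, 729 were called in the oxaliplatin arrays alone and 767 in the vehicle arrays alone. Of the 242 called higher in Cy3, 153 and 224 were called. The single-group fits called 799 and 901 genes towards Cy5 and 204 and 449 towards Cy3 in all. Between the groups, 3231 of all genes differed in the ratio at an unadjusted p of 0.05 and 0 after adjustment (limma, 2 arrays against 2). With so few arrays, and with calls that required the same sign on all 4, this does not show that the groups were alike.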

How the data were processed

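Total RNA was measured on 4 arrays with 2 channels, grouped by the sample titles. Per the file headers, median spot intensity and median local background were read for both dyes with Agilent Feature Extraction 10.7.1.1, while the submitters' processing notes name 8.5.1.1. Per the file headers they also hold a log10 ratio of Cy5 over Cy3, and the value table deposited by the authors holds log10 ratios with the same direction. Flags, per the file headers, say which spots were well above background, saturated or outliers, and have other units. No column was left unmapped (0).

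Intensities were corrected by normexp (offset 50) and log2 ratios normalised by loess in limma 3.58.1 under R 4.3.3, with 4259 control spots per array at weight 0. Outlier spots (466 to 609 per array) were dropped and spots of a probe averaged. Of 30367 probes, 24826 with a channel well above background on every array were kept, and the brightest probe stood for a gene. Of 2779 genes with several probes, probes of 973 disagreed in sign. Names came from RefSeq (GRCr8) by accession: 13454 of 21765 genes had a symbol, and the others kept the file's name. The ratio was tested against 0 by lmFit and eBayes over 4 arrays (two-sided, residual df 3, prior df 3.62). Levels per channel were scaled by Aquantile after loess. On simulated data, all 100 genes changed 3-fold and 100 changed 4-fold were recovered (100%), with 0 false calls. The simulation drew independent noise around equal channels for all other genes. It therefore does not cover dye effects, the normalisation, dim spots or probes that disagree. The number of arrays limits the precision.

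Members, the 55 gene lists (1379 of 1394 symbols matched) and the tests were chosen with earlier results of these data known. Lists are described by counts and medians beside all genes. Named were the 12 genes per direction with the largest smallest ratio over arrays, the largest bounds, the first and the most extreme members of each list, and a few genes whatever their values. Some genes counted in the lists are not reported here by name or drawn. Outside that rule, these list members were named after their values were seen: Bcl11b, Btg2, Calcb, Camk2a, Ckm, Cldn19, Col5a1, Col6a2, Cux2, Dlx5, Dusp1, Dusp5, Egr1, Egr3, Fezf2, Fmod, Fxyd2, Gadd45a, Gldn, Hnf4a, Homer1, Hoxc4, Hoxd10, Hoxd9, Ier3, Isg15, Kcnk18, Klf4, Lhx6, Myog, Myrf, Nefh, Nefl, Nefm, Nkx6-2, Npas4, Nptx2, Nr4a2, Nrgn, Pvalb, Slc17a7, Sncg, Sox10, Sox11, Tacr1, Trpa1, Trpm8 and Trpv1. Same-numbered arrays did not deviate together (r = -0.23), so numbers were not used as pairs. The alternatives tried were the normalisation, background correction, scanner and deposited ratios, filter, probe rule, slide or replicate block, test and each array left out.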

Additional observations from a re-analysis of the deposited data

Results flagged for a closer look

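Of 91 gene and list ratios, 6 had 1 array far from the other 3, measured as the gap to the nearest array over the whole range and set against Dixon's critical value, which chance passes in about 1 case in 20. Crym (0.873), a thyroid hormone binding protein gene at 4.56 on average, was lower on vehicle array 1, at 4.40, and Tmem63a (0.843) lower on vehicle array 2, at -1.92. List medians with such an array were Schwann cells (0.842, vehicle array 1 lowest at 0.10), hypothalamus and pituitary (0.887, oxaliplatin array 2 lowest at 0.06), lymphocytes (0.869, oxaliplatin array 1 highest at 0.25) and GABA-A and glycine receptors (0.911, oxaliplatin array 1 highest at 0.47).

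In 4 lists the oxaliplatin and vehicle arrays lay on opposite sides of 0, a difference between groups that was not tested. The difference of oxaliplatin minus vehicle was 0.504 for MHC class II genes, 0.154 for adipose tissue genes, -0.0509 for cerebellar genes and -0.172 for ionotropic glutamate receptor genes. Some of these medians lay very close to 0. That of adipose genes was -4.4e-05 on vehicle array 2, and that of cerebellar genes -0.0029 on oxaliplatin array 1. Slide and group cannot be told apart here.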

How the results depend on the processing

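Calls held best towards Cy5. Leaving out each array in turn gave 794 to 877 genes higher in Cy5 and 208 to 339 higher in Cy3. Median centring gave 1492 and 134, the log ratios of the scanner software and of the deposited values 621 higher in Cy3 each, the vehicle arrays alone 449 higher in Cy3, and a limma test against 2-fold 420 and 30. The replicate block gave 811 and 242, group means 811 and 242, and the crossed block, chosen after seeing the data, 810 and 242. In these balanced fits the mean ratio of a gene cannot change, so only p-values could differ. The close counts therefore do not show that pairing is without effect. Of 225 named genes, 2 near 0 reversed: Acta1 with median centring (-0.26), and Prm1 with median centring (-0.0858) and in the vehicle arrays alone (-0.0771), with -0.0226 to 0.133 when an array was left out. The cause was not tested. List medians kept their sign in the lists that follow. With median centring they were 0.11 for Schwann cells, -0.76 for central myelin, -0.13 for astrocytes and 0.0851 for skeletal muscle. With the scanner ratio they were 2.00 for ganglion neurons, 0.62 for Schwann cells, -1.39 for central myelin, -0.72 for astrocytes, -0.83 for Hox genes and 1.75 for cortex, and with the deposited values 2.00, 0.62, -1.39, -0.72, -0.83 and 1.75. With both channels above background they were 0.42 for Schwann cells and 1.68 for cortex, and as means over probes 1.48 for cortex. In the oxaliplatin arrays alone they were -0.36 for astrocytes and -0.64 for Hox genes, and in the vehicle arrays alone -0.75 for astrocytes. Leaving out an array gave -0.72 to -0.55 for astrocytes and -0.60 to -0.35 for Hox genes. Bright lists moved towards Cy5 with median centring, among them ribosomal proteins to 0.99, the respiratory chain to 0.73, reference genes to 0.50 and genes of all neurons to 0.83. Near-zero lists (15 with median centring, 6 with the scanner ratio) changed sign. Ratios of genes near the Cy3 detection limit are the least certain in size.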
